A study of Mus musculus with 6 samples.

Results

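Matrix metalloproteases and their natural inhibitors were followed in mature 3T3-L1 adipocytes transduced with an adenovirus carrying Lmo3. The genes were taken by symbol: every Mmp, Adam or Adamts symbol followed by a number, and Timp1 to Timp4. This gave 79 genes of the 24421 symbols counted, made up of 23 matrix metalloproteases (MMPs), 33 ADAMs, 19 ADAMTS genes and 4 tissue inhibitors of metalloproteases (TIMPs). 3T3-L1 is a mouse fibroblast-like line that turns into fat cells under a hormone cocktail, and the labels give its strain as C57BL/6. Differentiation began 2 days after confluency in DMEM with 10% CS, 870 nM insulin, 5 µM TZD, 1 µM Dex and 500 µM IBMX, and IBMX and Dex were left out from day 3. On day 7 the cells of both groups received 100 pfu per cell of adenovirus, coding for LacZ in the control group (AdLacZ) or for a codon-optimized murine Lmo3 in the other (AdLmo3), a LIM domain adaptor protein. According to the series' description, RNA was taken 72 h later from 3 separate infections per group. The model is a single cell line in culture, with no uninfected group among the libraries.

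Zinc-dependent proteases of these families cut proteins outside the cell and at its surface. MMPs cleave collagens, gelatin and other matrix proteins, ADAMs shed the outer parts of membrane proteins such as cytokines and growth factor receptors, and ADAMTS enzymes trim proteoglycans and procollagens. TIMPs sit in the active site of these enzymes and block them. In fat tissue the collagen-rich matrix around each adipocyte has to be remodelled as the cell fills with lipid, and MMP14 is known for its part in that process.

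The 6 libraries held between 28035639 and 38332335 counts in genes, of which the 79 genes took 0.341% to 0.419%. Counts of Lmo3 were 0 in every library, so the labels could not be checked through the targeted gene, whose introduced copy has altered codons. Its relative Lmo1, named here after its values were seen, had 0 counts in each AdLacZ library and 15, 12 and 6 counts in the AdLmo3 libraries. Of 8 adipocyte markers, 7 rose in the AdLmo3 libraries (edgeR, adjusted p under 0.05), beside 2.71% of all tested genes. The summed CPM (counts scaled to library size, with TMM factors) of the 8 was 10235 to 10747 in the AdLacZ libraries. In the AdLmo3 libraries it was 15260 to 19580. Of 8 preadipocyte or fibroblast markers 0 passed the test, beside 4.28% of all tested genes, with sums of 2579 to 3182 CPM against 2656 to 3416 CPM. Summed CPM of 7 leukocyte markers lay at 4.61 to 5.91 and 3.30 to 5.32, and those of 4 endothelial markers at 1.43 to 2.38 and 0.926 to 1.81. In such bulk samples a larger share of mature cells and more RNA per cell cannot be told apart, and the part of the adipocyte marker difference in the results for the proteases was not tested.

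Among the 79 genes 63 were detected with any count, and 39 passed the filter on low counts and were tested: 12 MMPs, 12 ADAMs, 11 ADAMTS genes and all 4 TIMPs. The other 40 did not exceed 11 counts in any library. Of these, 16 had 0 counts throughout, among them Mmp7 (matrilysin), Adamts13 (the protease of von Willebrand factor) and Adamts20, which allows at most 3 counts per library, or 0.0783 to 0.107 CPM before TMM scaling. A further 14, among them the collagenases Mmp1a and Mmp8, stayed between 1 and 3 counts at most. Counts of Adamts8 were 1, 2 and 1 against 0, 3 and 1, although its neighbour Adamts15 lies only 20109 bp away on chromosome 9, on the opposite strand and with 0 protein-coding genes between them.

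Sequences upstream are shown for the members that differed between the groups and have a promoter in the RefSeq table used here, and for a contrasting pair from the MMP cluster. Such an entry, on build GRCm38.p6, spans 250 bases before to 50 after the annotated start, and 49 of the 79 genes have at least 1. Capitals mark matches on either strand to 3 motifs, which do not overlap here. The GC box, a site for SP1-type factors, was searched as GGGCGG. For the TATA box, where the transcription machinery can be placed, the letters were TATAAA. The AP-1 site, bound by Fos and Jun proteins, was read as TGACTCA. All 4 sequences are given in the direction of transcription.
Adamts9, chr6:92943485-92943784, minus strand: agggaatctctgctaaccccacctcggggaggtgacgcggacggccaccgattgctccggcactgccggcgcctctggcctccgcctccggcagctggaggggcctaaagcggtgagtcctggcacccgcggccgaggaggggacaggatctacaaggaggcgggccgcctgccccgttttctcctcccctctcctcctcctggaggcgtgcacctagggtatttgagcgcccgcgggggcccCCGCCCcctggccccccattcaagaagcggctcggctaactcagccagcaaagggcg
Adamts12, chr15:11064523-11064822, plus strand: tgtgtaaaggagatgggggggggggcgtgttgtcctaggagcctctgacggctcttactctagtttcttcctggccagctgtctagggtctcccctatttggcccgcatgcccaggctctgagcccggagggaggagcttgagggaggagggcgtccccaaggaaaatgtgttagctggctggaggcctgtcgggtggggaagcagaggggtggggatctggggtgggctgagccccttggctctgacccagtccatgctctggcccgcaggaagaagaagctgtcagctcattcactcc
Mmp13, chr9:7272264-7272563, plus strand: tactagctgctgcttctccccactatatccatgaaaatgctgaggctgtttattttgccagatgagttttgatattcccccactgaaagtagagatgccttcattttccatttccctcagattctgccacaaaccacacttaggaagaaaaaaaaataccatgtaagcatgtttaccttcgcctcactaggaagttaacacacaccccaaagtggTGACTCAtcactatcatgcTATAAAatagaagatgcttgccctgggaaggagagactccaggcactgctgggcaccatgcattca
Mmp3, chr9:7445572-7445871, plus strand: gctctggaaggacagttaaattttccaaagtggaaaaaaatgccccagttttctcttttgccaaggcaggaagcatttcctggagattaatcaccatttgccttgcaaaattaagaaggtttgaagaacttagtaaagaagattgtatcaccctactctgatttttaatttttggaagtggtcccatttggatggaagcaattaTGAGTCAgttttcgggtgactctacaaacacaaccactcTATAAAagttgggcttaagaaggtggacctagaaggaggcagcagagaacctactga

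The Adamts9 sequence had a GC content of 70% with 25 CpG dinucleotides and 1 GC box, and neither a TATA box nor an AP-1 match. The Adamts12 sequence, at 62% GC with 7 CpG, held none of the 3 motifs. Mmp13 and Mmp3 were AT-richer, at 43.7% and 40% GC with 1 CpG each, and both held an AP-1 match followed by a TATA box. These genes lie in a run of 10 MMP genes at chr9:7272514-7699585 (427072 bp, GRCm38), and 7 of the 10 had a promoter with both a TATA box and an AP-1 match, against 1 of the 39 other members with an entry (Adam29) and 0.941% of 32851 promoters of that length. With any base allowed in the middle of the AP-1 motif, the share was 8 of the 10, beside 1.54% of all promoters. Taken singly, a GC box was found in 35.7% of all promoters, a TATA box in 13.6% and an AP-1 match in 5.20%. Counts within the run differed widely: Mmp13 had 51 to 343 counts per library and Mmp3 196 to 358, whereas Mmp27 had 11 to 24 and the other 7 genes did not exceed 9. These letters describe the windows only, and no binding was measured.

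Levels can be compared between genes once counts are divided by length, here as CPM per kb of annotated exon, averaged over the 6 libraries. Mmp2, the gelatinase that also cuts type IV collagen, was highest at 235, followed by its inhibitor Timp2 at 83.1, Adamts1, a versican-cleaving enzyme, at 71.1, and Mmp14, the membrane-bound activator of pro-MMP2, at 59.8. These 4 genes made up 56.4% of the summed CPM per kb of all members. Next came the sheddase Adam9 at 54.5, Mmp11 (stromelysin-3) at 52.6, Adam15 at 34.7, the Notch and cadherin sheddase Adam10 at 31.8, Mmp19 at 29.0 and Timp1 at 17.3. Neighbours in the order from Timp2 to Adamts1, Mmp14 and Adam9 overlapped in their ranges over libraries, but every Adam9 library lay under every library of Timp2 and Adamts1. Of the tested members 15 lay above 10 CPM per kb and 9 under 1. With the longest annotated transcript as the length, Mmp14 at 110.0 came above Timp2 at 87.3, and Mmp2 stayed first at 258.

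**Figure D1:**
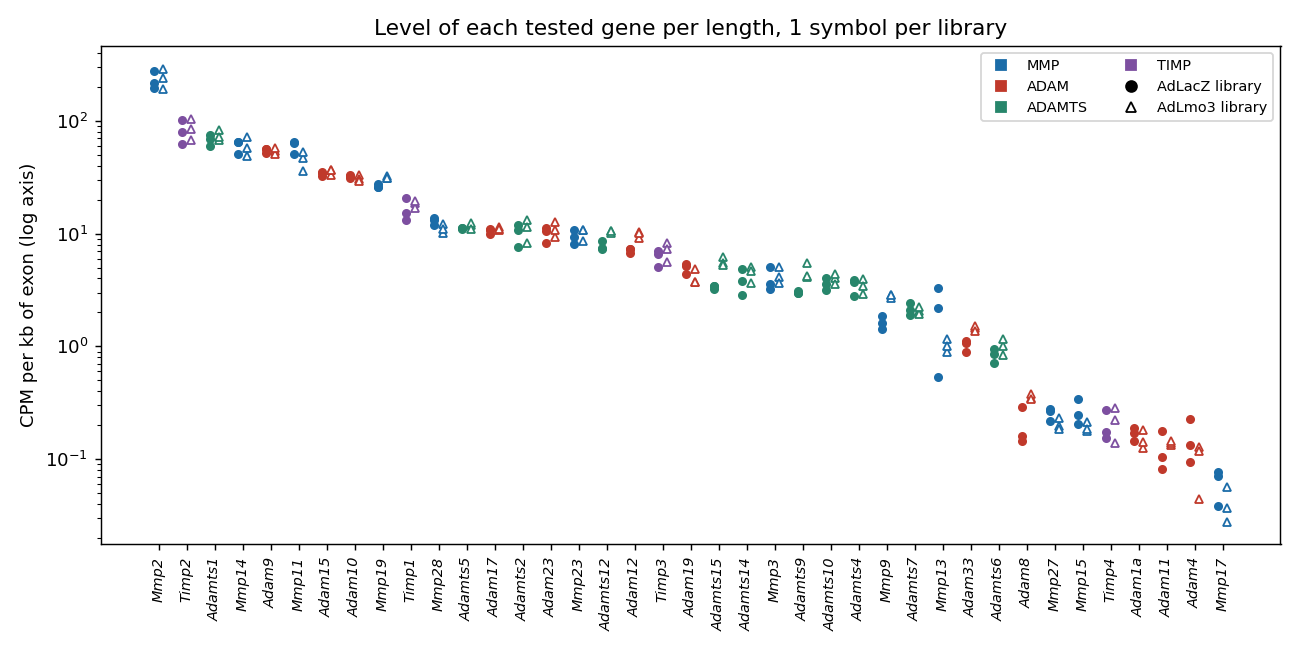
Level of each of the 39 tested members in CPM per kb of exon on a log axis, 1 symbol per library, filled circles for AdLacZ and open triangles for AdLmo3, coloured by family. Mean levels run from 235 for Mmp2 to 0.0514 for Mmp17, and for most genes the symbols of both groups overlap.

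The comparison of AdLmo3 with AdLacZ asks which of these genes changed when Lmo3 was expressed in mature adipocytes. Transcripts of 5 members rose and 0 fell: the proteoglycanases Adamts15 and Adamts9, the cartilage-matrix protease Adamts12, the gelatinase Mmp9 and the membrane protease Adam12, by 1.34- to 1.71-fold. That is 12.8% of the 39 tested, beside 4.28% of all 12766 genes tested by edgeR (2.71% higher and 1.57% lower). All 4 TIMPs and the most abundant MMPs, Mmp2 and Mmp14, overlapped between the groups. The median log2 fold change of tested members was 0.09, beside 0.00 for all tested genes, with 25 members above 0 and 14 below. At an unadjusted p under 0.05 there were 10 members (25.6% of those tested), beside 20.6% of all tested genes. With 1 library left out 1 to 5 members passed the test (1 without AdLacZ replicate 3, and 2 without AdLacZ replicate 2 or without AdLmo3 replicate 2), and without both libraries numbered 3 edgeR called 0 members and 12 genes in all. CPM ranges of the 2 groups did not overlap for 8 of the 39 tested members, all higher with AdLmo3, and 0 members were lower without overlap. Among all tested genes, 13.3% were higher and 13.2% lower with AdLmo3 without overlap. Ranges overlapped for 31 members and for 9385 of the 12766 genes.

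**Figure D2:**
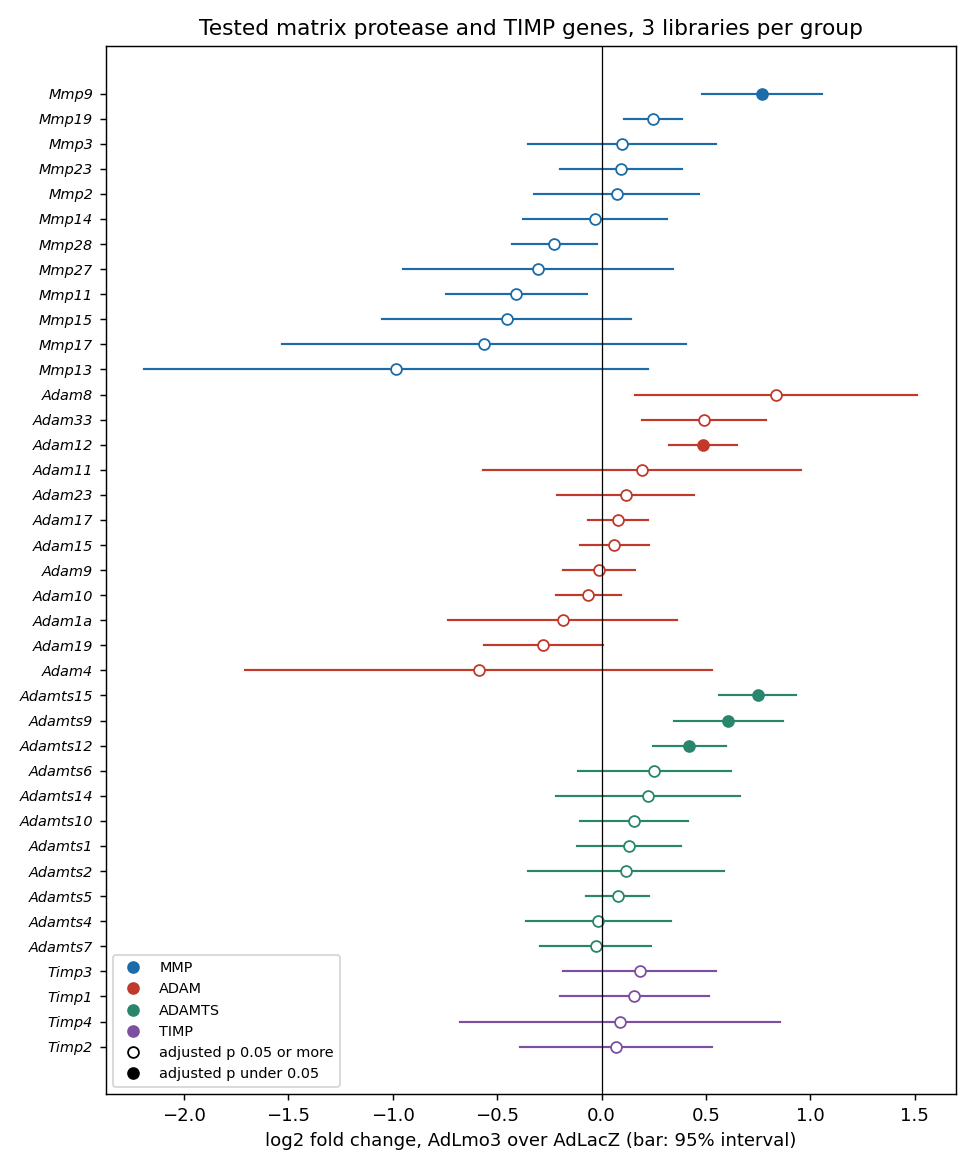
Log2 fold change (AdLmo3 over AdLacZ, x axis) of the 39 tested members, 3 libraries per group, sorted within family on the y axis; bars are 95% intervals, filled points have an edgeR adjusted p under 0.05. Filled points are Mmp9, Adam12, Adamts15, Adamts9 and Adamts12, all to the right of 0, and each TIMP interval spans 0.

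Among the ADAMTS hyalectanases, which cut aggrecan, versican and related proteoglycans, 2 of 5 tested genes rose, beside 2.71% of all tested genes. Adamts15 (chr9:30899155-30922452, minus strand, GRCm38) had 33.3, 35.6 and 35.6 CPM in the AdLacZ libraries and 64.8, 56.5 and 54.3 CPM in the AdLmo3 libraries. Every AdLmo3 library lay well above every AdLacZ library, and the spread within AdLacZ was narrow. The log2 fold change was 0.75 (SE 0.0804, edgeR adjusted p = 0.00352), or 1.68-fold, the lowest adjusted p among the members. It passed the test with each single library left out, but not without both libraries numbered 3 (adjusted p = 0.0554). Adamts9 (chr6:92772699-92943492, minus strand), an enzyme also known for turnover of versican, was at 44.8, 45.2 and 46.4 CPM with AdLacZ and at 61.7, 62.9 and 83.3 CPM with AdLmo3. The groups did not overlap, and AdLmo3 replicate 3 stood above the other two. Its log2 fold change was 0.61 (SE 0.113, adjusted p = 0.0263), and 0.47 (adjusted p = 0.106) without the libraries numbered 3. The call was also lost without AdLacZ replicate 1, 2 or 3 or AdLmo3 replicate 2 (adjusted p = 0.0657 to 0.112). Without a stated strand setting, reads from both strands cannot be told apart at this locus, where 12.0% of the annotated Adamts9 exon bases are shared with transcripts on the opposite strand.

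The more abundant hyalectanases did not pass the test. Adamts1 was at 397, 365 and 317 CPM against 441, 358 and 383 CPM, with a log2 difference of 0.13 (95% interval -0.12 to 0.38). Adamts5, the main aggrecanase of mouse cartilage, was at 119, 121 and 120.4 CPM against 129, 133 and 119 CPM, a log2 difference of 0.08 (interval -0.07 to 0.23). Both pairs of groups overlapped.

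Adamts12 (chr15:11064790-11349231, plus strand), which degrades cartilage oligomeric matrix protein, rose from 93.4, 81.2 and 79.5 CPM to 115, 110.4 and 115 CPM. All AdLmo3 libraries exceeded all AdLacZ libraries, with a log2 fold change of 0.42 (SE 0.0762, adjusted p = 0.0235). The call was lost without AdLacZ replicate 2 or 3 or AdLmo3 replicate 2 or 3 (adjusted p = 0.0588 to 0.117). Comp, its substrate, had a log2 difference that did not pass the test (adjusted p = 0.548). Adamts10, which binds fibrillin, was next in level within the remaining ADAMTS group, with 29.4, 33.7 and 26.1 CPM against 33.3, 36.4 and 29.6 CPM and a log2 difference of 0.16 (adjusted p = 0.487). The procollagen N-propeptidases Adamts2 and Adamts14 had log2 differences of 0.12 and 0.22 (adjusted p = 0.800 and 0.574), and their groups overlapped. Across the family 9 of 11 tested genes had positive differences, beside 6437 of all 12766 tested genes. The summed CPM per kb was 117 ± 12.5 with AdLacZ and 133 ± 10.9 with AdLmo3 (SD, n = 3 each), with overlapping ranges.

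Of the ADAMs with an active metalloprotease site, 1 of 8 tested rose, beside 2.71% of all tested genes. Adam12 (chr7:133883199-134232146, minus strand), the meltrin-α protease known from muscle and fat cell formation, was at 77.4, 70.8 and 76.5 CPM with AdLacZ and at 109.7, 97.5 and 107 CPM with AdLmo3. The gap between the groups was larger than the spread within either of them. The log2 fold change was 0.49 (SE 0.0707, edgeR adjusted p = 0.0117), and without AdLacZ replicate 3 the adjusted p was 0.0666. Adam33, a close relative of Adam12, was at 5.82, 6.07 and 4.81 CPM against 7.83, 8.23 and 7.40 CPM, without overlap; its log2 difference of 0.49 (SE 0.129) had an adjusted p of 0.0764 in edgeR and 0.0315 in DESeq2. DESeq2 called 5.19% of its genes higher with AdLmo3.

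The most abundant sheddases differed little. Adam9 was at 232, 211 and 232 CPM against 224, 209 and 236 CPM (log2 difference -0.01, 95% interval -0.18 to 0.16). Adam15 was at 213, 197 and 215 CPM against 203, 225 and 224 CPM (0.06, interval -0.10 to 0.23), with 20.6% of its exon bases shared with an opposite-strand transcript. Adam10 and Adam17, the sheddases of Notch and of tumour necrosis factor, named after their values were seen, had log2 differences of -0.06 (interval -0.22 to 0.09) and 0.08 (interval -0.06 to 0.22). Of those without the catalytic site, Adam23, an integrin ligand, was at 201, 147 and 189.9 CPM against 166, 192 and 226 CPM, and Adam11 stayed at or under 1.01 CPM. Both overlapped between groups, with adjusted p of 0.703 and 0.795. Adam8, also named after its values were seen, had 24, 53 and 25 counts against 60, 65 and 43; its CPM did not overlap, but its adjusted p was 0.157.

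The gelatinases differed from each other. Mmp9 (chr2:164940780-164955850, plus strand), which cuts denatured collagen, was at 6.58, 5.76 and 5.07 CPM with AdLacZ and at 10.1, 9.48 and 10.1 CPM with AdLmo3. No AdLacZ library reached any AdLmo3 library, and the log2 fold change was 0.77 (SE 0.125, adjusted p = 0.0164). Without AdLacZ replicate 2 or 3 or AdLmo3 replicate 2 the adjusted p was 0.0547 to 0.0761. Mmp9, with 172 to 375 counts, is also made by leukocytes. Of the 7 leukocyte markers, Ptprc had 0 to 1 counts, Adgre1 0 to 2, Itgam 0 to 3 and Mrc1 0 to 4, while Csf1r had 14 to 30, Lyz2 29 to 67 and Cd68 40 to 163. None of the 3 that were tested passed in edgeR, and the part of leukocyte RNA in the Mmp9 difference was not tested. Mmp2 (chr8:92827291-92853420, plus strand) was far higher, with 729, 934 and 657 CPM against 979, 813 and 648 CPM. These ranges overlapped almost wholly, and the log2 difference was 0.07 with an interval of -0.32 to 0.47. Mmp9 was a small part of the gelatinase transcripts in both groups, at 1.64 CPM per kb with AdLacZ and 2.80 with AdLmo3, beside 229 and 241 for Mmp2.

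**Figure D3:**
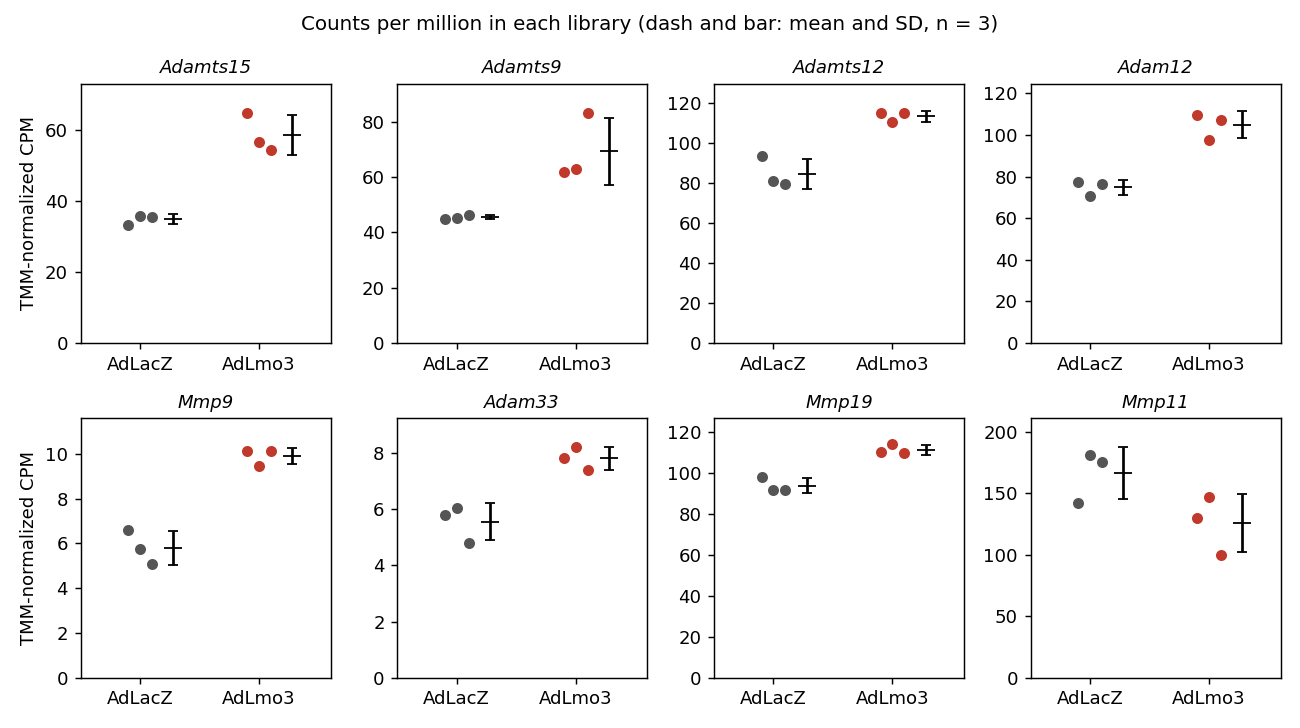
TMM-normalized CPM per library (y axes start at 0) for the 5 members that rose, for Adam33 and Mmp19, called by DESeq2 but not by edgeR, and for Mmp11; dashes with bars give mean and SD, n = 3. AdLacZ and AdLmo3 points do not overlap except for Mmp11, and for Adamts9 1 AdLmo3 library lies at 83.3 CPM above the others.

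In the other MMP groups edgeR called 0 genes and DESeq2 called Mmp19. Of the collagenases, Mmp13 alone was tested, with 1.43, 8.78 and 5.90 CPM in the AdLacZ libraries and 3.10, 2.36 and 2.70 CPM in the AdLmo3 libraries. The first AdLacZ library was the lowest of all and the other two AdLacZ libraries the highest. Its log2 difference was -0.98 (SE 0.525, adjusted p = 0.343), and without AdLacZ replicate 1 it was -1.43 (adjusted p = 0.0234), so this single library decided the call. Mmp1b had 9, 3 and 0 counts against 2, 2 and 3. Among the stromelysins, Mmp11, which cuts serine protease inhibitors more readily than collagen, was at 142, 181 and 176 CPM against 129.6, 147 and 100.1 CPM, with 1 AdLmo3 library inside the AdLacZ range (log2 difference -0.41, adjusted p = 0.166). Mmp3 was at 6.49, 9.16 and 5.78 CPM against 7.40, 6.63 and 9.03 CPM (0.10, adjusted p = 0.830).

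Mmp14 was at 390.0, 388 and 304 CPM against 425, 341 and 291 CPM, with a log2 difference of -0.03 (interval -0.38 to 0.31). The other membrane-type enzyme named by level, Mmp15, did not exceed 1.85 CPM and had an adjusted p of 0.377. Mmp19, a basement membrane protease, was at 98.0, 91.4 and 91.6 CPM against 110.0, 114 and 109.5 CPM, higher in every AdLmo3 library but by only 1.19-fold, with an adjusted p of 0.0644 in edgeR and 0.0168 in DESeq2. Of its exon bases 28.3% are shared with opposite-strand transcripts. Mmp28 (epilysin) was at 53.1, 45.8 and 51.2 CPM against 46.8, 38.8 and 42.7 CPM, overlapping at the edge (log2 difference -0.23, adjusted p = 0.197).

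None of the inhibitors passed the test, and all 4 overlapped between groups. Timp2, which both blocks MMP2 and helps MMP14 to activate it, was at 394, 311 and 242 CPM with AdLacZ and at 406, 327 and 262 CPM with AdLmo3. In each group the library numbered 1 was highest and that numbered 3 lowest, and the log2 difference was 0.07 (interval -0.39 to 0.53). Timp3, the matrix-bound inhibitor that also blocks ADAM17 and ADAMTS enzymes, was at 53.9, 56.9 and 41.3 CPM against 67.2, 59.8 and 45.6 CPM (0.18, interval -0.18 to 0.55), with 21.3% of its exon bases shared with Syn3 on the opposite strand. Timp1 was at 18.2, 13.6 and 11.8 CPM against 16.6, 14.9 and 17.2 CPM (0.16, interval -0.20 to 0.52). Timp4 lay between 0.815 and 1.67 CPM in all libraries (0.09, interval -0.68 to 0.85). Adjusted p for the TIMPs ran from 0.582 to 0.922, and the upper bound of each of the 4 intervals lay above the fold changes of Adamts12 and Adam12.

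Summed per family, the levels of proteases and inhibitors overlapped between groups. MMP sums were 407 ± 52.3 CPM per kb with AdLacZ and 407 ± 67.1 with AdLmo3, ADAM sums 155 ± 7.44 and 159 ± 4.03, and TIMP sums 104 ± 24.0 and 111 ± 19.7 (SD, n = 3 each). The ratio of the MMP to the TIMP sum was 3.05, 4.54 and 4.51 with AdLacZ and 3.58, 3.81 and 3.65 with AdLmo3. The AdLmo3 values all fell inside the AdLacZ range. Mmp2 alone gave 56.1% ± 3.13 and 59.1% ± 2.38 of the MMP sum, and Timp2 77.9% ± 0.850 and 76.5% ± 3.42 of the TIMP sum. Libraries numbered 3 were lowest of their group for 21 of the 39 tested members in AdLacZ and for 18 in AdLmo3, and in both groups for 10 (25.6%, beside 13.8% of all tested genes).

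**Figure D4:**
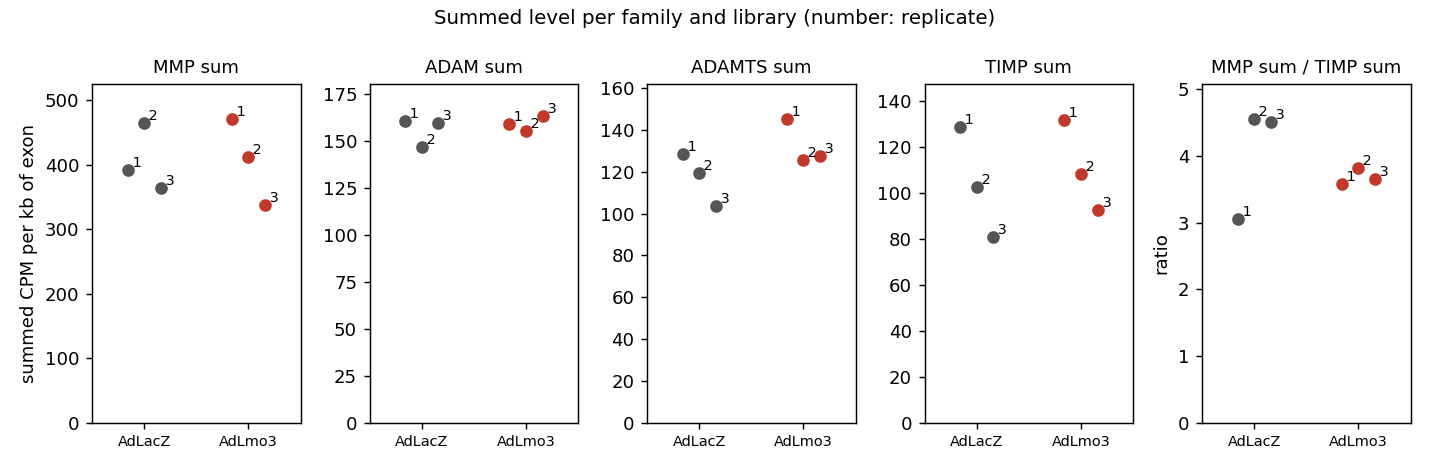
Summed CPM per kb of exon for each family in each library and, on the right, the MMP sum divided by the TIMP sum (y axes start at 0; numbers beside points are replicate numbers). Points of AdLacZ and AdLmo3 overlap in every panel, and the TIMP sums run from 80.7 to 132 with the libraries numbered 3 lowest in both groups.

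Partners of these proteases were read from 4 lists of 87 genes, of which 68 were tested, 5 rose and 3 fell by the edgeR test (11.8% called, beside 4.28% of all tested genes, 2.71% higher and 1.57% lower). Each library left out lowered these 8 calls to between 0 and 4. Like the members, the lists were chosen with earlier results of these data known, so a share above that of all genes is no test of them. The list of 17 further regulators and clearance genes also holds some that are not inhibitors. Of the 17, 11 were tested and 0 called by edgeR, with 2 at an unadjusted p under 0.05. Reck, the membrane-anchored MMP inhibitor, had a log2 difference of 0.19 (adjusted p = 0.563), and Lrp1, the receptor that clears many of these enzymes, 0.39 (adjusted p = 0.158 in edgeR, 0.0354 in DESeq2). Of 20 activators and trafficking partners, 16 were tested and 0 called by edgeR, with 3 at an unadjusted p under 0.05 (both lists beside 20.6% of all genes). DESeq2 called Tspan17, named after its values were seen, a tetraspanin of the ADAM10-binding group (edgeR adjusted p = 0.145, DESeq2 0.0453). It was at 118, 82.1 and 111 CPM against 75.8, 78.7 and 84.7 CPM. Of all 12917 genes with an adjusted p in DESeq2, 8.55% were called, 671 higher and 433 lower. Furin, which removes the propeptide of ADAM, ADAMTS and membrane-type MMP precursors, had a log2 difference of 0.21 (adjusted p = 0.174).

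Among 17 other matrix and membrane proteases, 12 were tested, of which 1 rose and 1 fell by edgeR (2.71% and 1.57% of all tested genes). Ece1, the endothelin-converting enzyme, went from 75.9, 76.7 and 83.4 CPM to 95.2, 106 and 112 CPM (log2 fold change 0.41, adjusted p = 0.0282), and Htra1, a secreted serine protease, from 2.16, 2.00 and 2.77 CPM to 0.972, 1.33 and 1.07 CPM (-1.03, adjusted p = 0.0447). DESeq2 also called Ctsb higher (edgeR adjusted p = 0.0603, DESeq2 0.000987) and Ctsl lower (edgeR 0.116, DESeq2 0.0342), both named after their values were seen. Of 33 matrix and membrane substrates, 29 were tested, 4 rose and 2 fell by edgeR (2.71% and 1.57% of all tested genes). Those that rose were Ncan (neurocan, 1.28, adjusted p = 0.0287), the type IV collagen chains Col4a1 (0.40, 0.0434) and Col4a2 (0.37, 0.0484), and the small proteoglycan Bgn (0.35, 0.0446), each given as log2 fold change and edgeR adjusted p. Col4a1 and Col4a2 chains assemble with each other in basement membranes. Lama4, a laminin chain of basement membranes, and App, an ADAM10 substrate, fell by 0.45 each on the log2 scale (adjusted p = 0.0200 and 0.0236). Ncan rested on 28 to 54 counts against 89 to 91. Fbn1, named after its values were seen, was called higher by DESeq2 but not by edgeR (edgeR adjusted p = 0.153, DESeq2 0.0354).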

How the data were processed

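RNA of 3 AdLacZ and 3 AdLmo3 libraries (NEBNext Ultra II, NextSeq500, 75 bp single reads) was aligned by the authors to mm10. Their processing notes name STAR 2.5.0b, bcl2fastq and DESeq2 1.6.3; the counting program, annotation and strand setting are not given in the sources used here. The deposited values are raw counts per gene and library. Reads outside genes (no feature, 7.15% to 8.94% of the total) and ambiguous reads (0.476% to 0.543%) were left out.

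From the counts, genes were filtered with filterByExpr, scaled by TMM and tested with edgeR 4.0.16 (quasi-likelihood, R 4.3.3, Benjamini-Hochberg over all 12766 tested genes, threshold 0.05). DESeq2 1.42.0, limma 3.58.1 (voom), other scalings and filters, a block and leaving out libraries were alternatives. Code was tested on simulated counts, with spread taken from the edgeR fit and 200 genes changed by 1 on the log2 scale. There edgeR recovered 183 of them, and 6.15% of its calls were false. With the block 9.05% of calls were false. DESeq2 recovered 187 with 16.9% of its calls false, so calls made by DESeq2 alone are less certain. The series' description gives the 3 infections per group as separate. An exact permutation test of 3 against 3 could not go below p = 0.1. Replicates differed by more than sampling noise.

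Exon lengths and positions came from GENCODE M21 (GRCm38). Intervals for a count of 0 cover counting error only. Members and lists were chosen with earlier results of these data known. Named were members that passed the test, the TIMPs, the top 2 by CPM per role, members whose call differed between tools, and partners that passed it plus Reck, Lrp1 and Furin.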

Additional observations from a re-analysis of the deposited data

How the results depend on the processing

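All 5 calls among the members were also made with RLE or upper-quartile scaling, no filter, a stricter filter, DESeq2 and voom. DESeq2 called 1104 of 12917 genes (8.55%, 671 higher and 433 lower) in place of 547. Its calls included 7 members (with Adam33 and Mmp19), and 13 partner genes in place of 8. An edgeR fit with replicate as a block called 498 genes, the same 5 members and 4 partner genes. Deviations of same-numbered libraries correlated at 0.0345, 0.176 and 0.176. For AdLacZ replicates 2 and 3 the same number was the best match, but AdLacZ replicate 1 correlated best with AdLmo3 replicate 3 (0.111). The numbers were therefore not taken as pairs, and all intervals given are from the fit without the block.

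Leaving out 1 library at a time gave 77 to 501 genes, 1 to 5 members and 0 to 4 partner genes. Without AdLacZ replicate 3 Adamts15 alone was called, without AdLacZ replicate 2 or AdLmo3 replicate 2 Adam12 and Adamts15, without AdLmo3 replicate 3 4 members (all but Adamts12), and without AdLacZ replicate 1 Mmp13 (lower) in place of Adamts9. Without both libraries numbered 3, an alternative added after seeing the data, 12 genes, 0 members and 0 partner genes were called; the 5 members stayed above 0, with adjusted p from 0.0554 to 0.239. The cause was not tested; fewer libraries enter these fits. In that setting Mmp3 (-0.16), Timp1 (-0.011) and Timp4 (-0.29) changed sign.

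The log2 difference changed sign when 1 library was left out for Adam11 (-0.033 to 0.58), Adam23 (-0.0075 to 0.22), Adam9 (-0.056 to 0.033), Adamts2 (-0.055 to 0.29), Mmp14 (-0.18 to 0.087), Mmp2 (-0.077 to 0.23), Mmp3 (-0.032 to 0.32), Timp2 (-0.096 to 0.26) and Timp4 (-0.14 to 0.37), none of which passed the test in any of these fits.

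Over settings other than leaving out 1 library, 237 of 247 values kept their direction and side of the threshold. With 1 library left out 153 of 186 did, while 20 changed sign, 12 lost the call and 1 gained it. The 40 untested members had too few counts for a test.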
